A study of Homo sapiens with 12 samples.

Results

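The 10 mRNAs described here are the growth and survival transcripts most often cited as sensitive to the cap-binding protein eIF4E: MYC, CCND1, CCND3, ODC1, VEGFA, MCL1, BCL2L1, BIRC5, HIF1A and FGF2. They were chosen by symbol, and all 10 were found once among the 58735 genes of the count table. RNA-seq and ribosome profiling (Ribo-seq, which reads the short stretches of mRNA covered by ribosomes) were performed on 293T 4A cells, a human embryonic kidney line. The cells carry a doxycycline-inducible lentiviral construct for 4EBP1-4A, a mutant of the eIF4E inhibitor 4EBP1 whose 4 main mTORC1 phosphorylation sites are replaced so that it stays bound to eIF4E. All libraries came from this engineered population, which was sorted for a fluorescent marker, and all cells received cycloheximide before harvest. The DMSO group (3 RNA-seq and 3 Ribo-seq libraries) was untreated apart from vehicle, and the DOX group (3 and 3) received doxycycline at 2 mg/mL for 12 h by the sample labels and for 2 h by the series text, while the study's results text gives a longer time.

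eIF4E binds the cap of mRNAs and recruits eIF4G and the helicase eIF4A, which unwind the 5′ untranslated region (5′UTR) so that ribosomes can scan to the start codon. Hypophosphorylated 4EBP1 occupies the same surface of eIF4E as eIF4G, so the assembly of this complex falls when 4EBP1 is active. mRNAs with long or structured 5′UTRs, many of which encode cyclins, growth factors and short-lived survival proteins, are known to depend most on eIF4E, while their mRNA levels need not change. The comparison of DOX with DMSO therefore asks whether the level of each mRNA, and the ribosome-protected reads on it, differed once 4EBP1-4A was switched on.

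Between 51519700 and 57824136 RNA-seq reads fell on genes per DMSO library and between 21687906 and 47862104 per DOX library, and Ribo-seq gave 210186 to 1002424 and 299907 to 883572 reads. DOX replicate 3 was the shallowest RNA-seq library. Reads with more than 1 alignment made up 54.9% to 62.3% of the RNA-seq tally in DMSO and 65.4%, 69.9% and 88.4% in DOX replicates 1, 2 and 3. Log2 fold changes that moved by over 1.5 times without DOX replicate 3 are given both ways below. EIF4EBP1, the gene that the construct encodes, was at 156, 157 and 169 CPM (reads of a gene scaled to a common library total, here with TMM factors) in DMSO and at 260, 281 and 267 in DOX, higher in all 3 DOX libraries (log2 fold change 0.75, SE 0.095). Even this gene was not called from all 6 libraries, with an adjusted p of 0.326 in edgeR's quasi-likelihood test. Without DOX replicate 3 that test gave 1.19e-05. The 5 markers of 293T cells (VIM, NEFL, NEFM, INA and LIN28B) were all expressed, with a summed level, carried mostly by VIM, of 1018 to 1087 CPM in DMSO and 1158 to 1561 CPM in DOX. LIN28B went against the sum, at 98.2 to 112 CPM in DMSO and 41.4 to 86.5 CPM in DOX. Of 10 markers of kidney, blood and skin, 9 stayed under 1 CPM in every RNA-seq library, the exception being KRT10, and UMOD, AQP2, KRT5 and KRT14 had no RNA-seq read. In these bulk samples, fewer cells with an mRNA and less of it per cell cannot be told apart. The labels do not say whether replicates were separate cultures, so p-values measure the spread between these samples.

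None of the 10 mRNAs passed the RNA-seq test. With edgeR's quasi-likelihood test and Benjamini-Hochberg adjustment, 0 of 20552 genes were called in either direction (0.0% lower and 0.0% higher), so the absence of calls is not particular to the 10. At an unadjusted p under 0.05, MCL1 was lower, against 848 of all genes (4.13%) lower and 1969 (9.58%) higher. Of the 10, 7 had a log2 fold change below 0, as had 11035 of the 20552 genes tested. The median of the 10 was -0.07, beside -0.035 for all genes tested. All 3 DOX values lay below all 3 DMSO values for MCL1 and HIF1A and above them for BCL2L1, and the same was true of 20.8% (below) and 17.7% (above) of all genes. Changes are relative to TMM scaling, under which the median of all genes was near 0. With scaling by ERCC spike-ins that median moved to 0.34, and the directions of MYC, CCND3, ODC1 and VEGFA flipped. The 17 well-covered ERCC transcripts did not share 1 ratio between DOX and DMSO, their ratios running from 0.139 to 1.26.

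**Figure D1:**
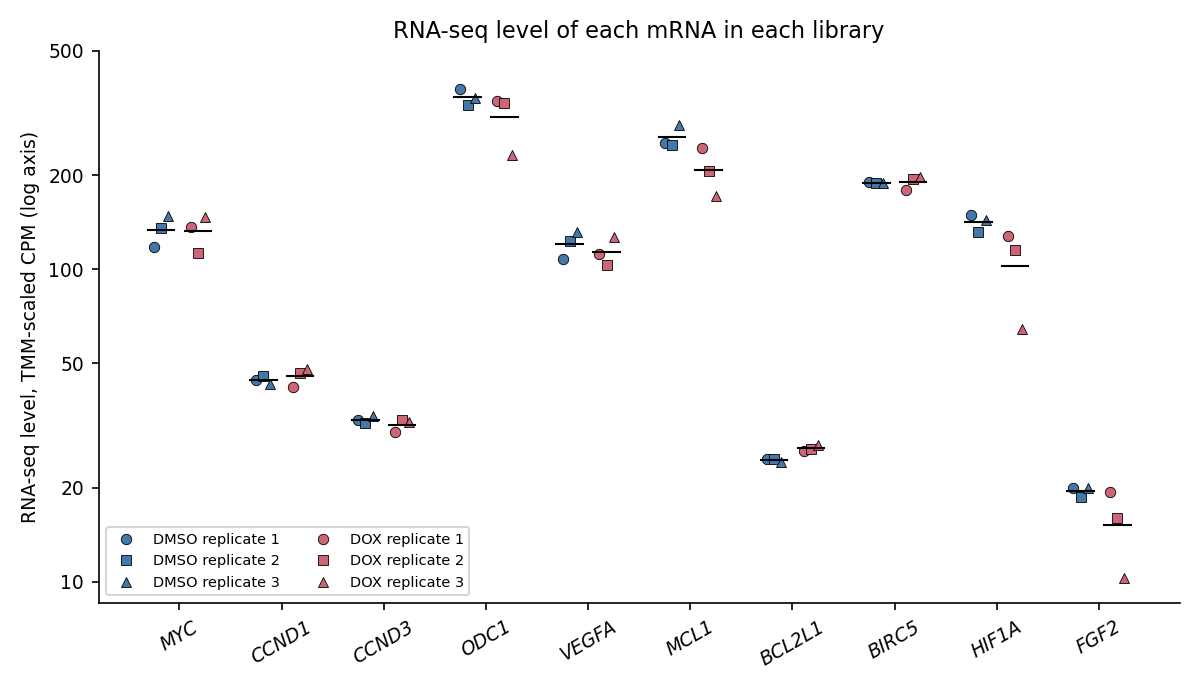
RNA-seq level of each of the 10 mRNAs in the 3 DMSO (blue) and 3 DOX (red) libraries, as TMM-scaled CPM on a log axis, with the marker shape giving the replicate and the line the group mean. The DOX values of MCL1 and HIF1A lie below all DMSO values, those of BCL2L1 above them, and DOX replicate 3 is the lowest point for ODC1, MCL1, HIF1A and FGF2.

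MYC, the transcription factor that drives ribosome production and entry into the cell cycle, did not differ beyond the spread between libraries. Its level was 117, 135 and 148 CPM in DMSO and 136, 113 and 147 CPM in DOX (log2 fold change -0.01, SE 0.14, and -0.10, SE 0.089, without DOX replicate 3). The groups overlapped throughout, and the 95% interval of the fold, 0.790 to 1.24, leaves room for changes of that size in either direction.

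CCND1 and CCND3 encode cyclins D1 and D3, which activate CDK4 and CDK6 in G1. CCND1, a textbook case of eIF4E-dependent mRNA export, was at 44.1, 45.6 and 43.1 CPM in DMSO and 41.9, 46.7 and 48.0 CPM in DOX (log2 fold change 0.04, SE 0.10, and -0.0018 without DOX replicate 3). CCND3 was at 32.9, 32.2 and 33.8 CPM in DMSO and 30.2, 33.0 and 32.3 CPM in DOX (-0.05, SE 0.10). The 2 groups overlapped for both cyclins. LTO1, encoded on the opposite strand, shares 10.4% of the exon bases of CCND1 and had 10451 RNA-seq reads of its own. The sources do not say if reads were counted by strand, so a part of the CCND1 reads is uncertain.

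ODC1 encodes ornithine decarboxylase, the rate-limiting enzyme of polyamine synthesis and a long-known target of MYC. Its level was 377, 336 and 354 CPM in DMSO and 345, 341 and 231 CPM in DOX. DOX replicates 1 and 2 lay within the DMSO range and replicate 3 well below it, so the log2 fold change of -0.22 (SE 0.16) became -0.05 (SE 0.064) without DOX replicate 3. The link from MYC to ODC1 is known to run through the E-box, whose letters are CACGTG and read the same on both strands. In RefSeq's promoter windows (250 bases before to 50 after a listed start, GRCh38.p14), 5 of the 10 genes had 10 windows between them. The other genes had none to search. ODC1 alone of the 5 held the E-box, at 2 places near 1 of its listed starts. Over all 35116 windows the share with an E-box was 7.26%, counted per window and not per gene. Both stretches are shown because they are the only such matches in the windows searched, with the E-box in capitals, on the minus strand of chr2:10448024-10448053 (outside annotated exons) and chr2:10447990-10448019 (in an exon of a transcript other than the canonical one):
ODC1 E-box 29 bases before the listed start: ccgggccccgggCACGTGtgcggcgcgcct
ODC1 E-box 5 bases after the listed start: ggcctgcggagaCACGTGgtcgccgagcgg
Neither MYC nor ODC1 passed the test, and the matches are a description only.

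MCL1 encodes a short-lived anti-apoptotic member of the BCL2 family. It was at 253, 250 and 290 CPM in DMSO and 244, 207 and 171 CPM in DOX. All DOX values lay below the DMSO values, the highest DOX library by a small margin. The log2 fold change was -0.35 (SE 0.15), with an unadjusted p of 0.0464 and an adjusted p of 0.326 in edgeR's quasi-likelihood test. Without DOX replicate 3 it was -0.23 (SE 0.079) with an adjusted p of 0.0763, in a fit that called 825 genes lower (4.03%) and 696 higher (3.40%) and none of the 10.

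BCL2L1 encodes BCL-XL, another anti-apoptotic BCL2 protein, and its difference had the opposite sign. It was at 24.8, 24.7 and 24.1 CPM in DMSO and 26.1, 26.7 and 27.4 CPM in DOX. The groups did not overlap, but the difference was small (log2 fold change 0.12, SE 0.098, adjusted p = 0.430 in edgeR's quasi-likelihood test). ABALON, an antisense RNA, shares 41.3% of the exon bases of BCL2L1 and had 49 RNA-seq reads of its own beside 6980 on BCL2L1. BIRC5 encodes survivin, a subunit of the chromosomal passenger complex and an inhibitor of apoptosis, and had the log2 fold change nearest to 0, at 191, 188 and 189 CPM in DMSO and 179, 194 and 197 CPM in DOX (0.0053, SE 0.093, and -0.025 without DOX replicate 3).

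HIF1A encodes the oxygen-regulated subunit of the hypoxia-inducible factor, and VEGFA, one of its targets, the main angiogenic growth factor. HIF1A was at 149, 131 and 144 CPM in DMSO and 127, 115 and 64.4 CPM in DOX. All 3 DOX libraries lay below all DMSO libraries, and replicate 3 was the lowest by far. The log2 fold change was -0.47 (SE 0.24) with an adjusted p of 0.326 in edgeR's quasi-likelihood test, and -0.22 (SE 0.070) with an adjusted p of 0.0588 without DOX replicate 3. VEGFA was at 108, 123 and 131 CPM in DMSO and 112, 103 and 127 CPM in DOX, with overlapping groups and a log2 fold change of -0.08 (SE 0.13). It was -0.17 (SE 0.078) without DOX replicate 3, with an adjusted p of 0.178 in edgeR's quasi-likelihood test.

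VEGFA and HIF1A share a feature that the choice of genes did not use. They are the 2 of the 10 whose canonical 3′UTR holds the AU-rich nonamer TTATTTATT, searched on the transcript strand, an element known from short-lived mRNAs. It occurs in 9.65% of the 14223 protein-coding genes with a 3′UTR. Each site is shown in 30 bases of the GENCODE transcript (GRCh38, plus strand), with the nonamer in capitals. The VEGFA site lies at chr6:43786286-43786315, near the end of a 3′UTR of 1925 bases. The HIF1A site lies at chr14:61747348-61747377 and holds 2 overlapping nonamers:
VEGFA: ttgttatcatTTATTTATTggtgctactgt
HIF1A: gcacctttTTATTTATTTATTtttggctag
The 1373 tested genes with the nonamer had a median log2 fold change of -0.17, beside -0.03 for the 12850 without it. Without DOX replicate 3 these medians were -0.07 and -0.01. Neither pair of medians was adjusted for GC content. Over 5 equal groups of protein-coding genes by GC content, the median log2 fold change ran from -0.39 in the lowest to 0.36 in the highest. Whether the difference between genes with and without the nonamer goes beyond this gradient was not tested. The shorter pentamer ATTTA was present in the 3′UTR of 8 of the 10, all but ODC1 and BIRC5, and in 72.9% of all genes, and its occurrences include the nonamers.

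FGF2, basic fibroblast growth factor, was the least abundant of the 10. It was at 19.98, 18.7 and 19.9 CPM in DMSO and 19.3, 16.0 and 10.3 CPM in DOX. DOX replicate 1 lay within the DMSO range and replicate 3 far below it, and the log2 fold change of -0.36 (SE 0.21) became -0.15 (SE 0.092) without replicate 3. NUDT6, on the opposite strand, shares 11.8% of the exon bases of FGF2 and had 2415 RNA-seq reads beside 4949 on FGF2.

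**Figure D2:**
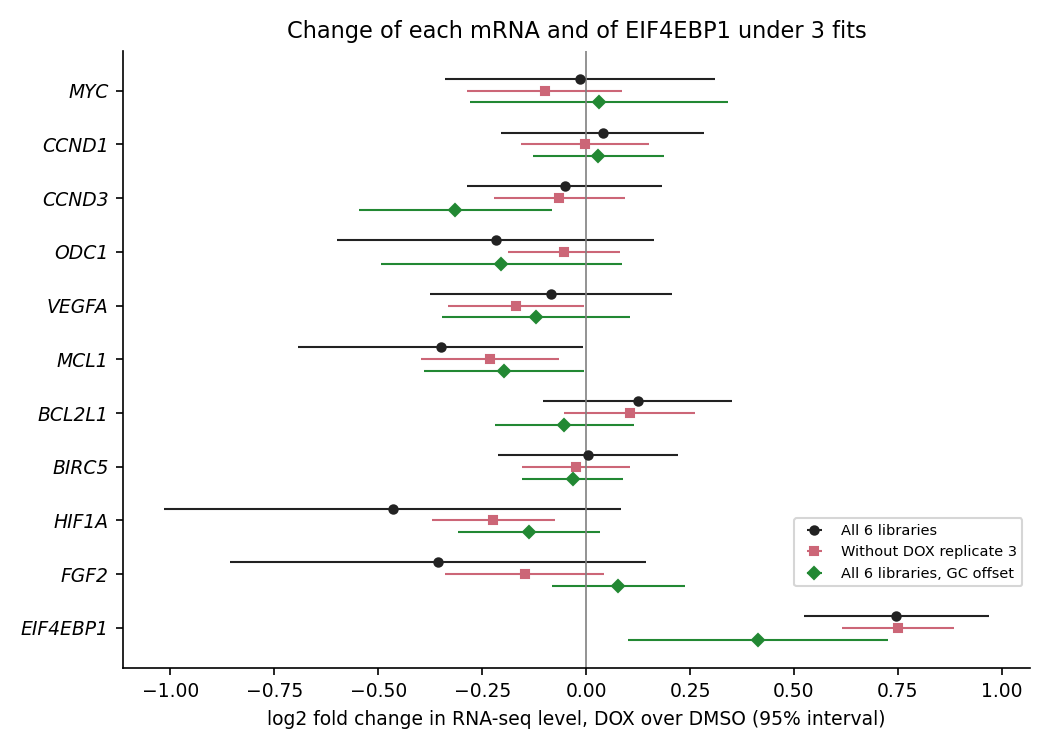
Log2 fold change in RNA-seq level, DOX over DMSO, of each of the 10 mRNAs and of EIF4EBP1, with 95% intervals, from all 6 libraries (black circles), without DOX replicate 3 (red squares) and with a GC offset (green diamonds). The low values of HIF1A, FGF2 and ODC1 shrink without DOX replicate 3, and with the GC offset FGF2 lies above 0, while EIF4EBP1 stays above 0 in the 3 fits.

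Over protein-coding genes at large, the differences between libraries followed the base composition of the transcripts, and the 10 mRNAs did so only in part. DOX replicate 3 differed from DOX replicates 1 and 2 by a median of -0.75 on the log2 scale in the lowest and by 0.46 in the highest of 5 equal groups of protein-coding genes by GC content. DOX replicates 1 and 2 differed from DMSO along the same gradient, by -0.18 and 0.16. HIF1A (39.4% GC) and FGF2 (36.8% GC) belong to the lowest group and MCL1 (45.1% GC) to the next, and these had the 3 lowest log2 fold changes of the 10. HIF1A deviated by -0.91 and FGF2 by -0.75 in DOX replicate 3, beside the -0.75 of their GC group. ODC1, with 49.4% GC, deviated by -0.57, where the median of its group was -0.14. MYC, VEGFA, CCND1 and BIRC5, of the same middle group, deviated the other way, by 0.24, 0.24, 0.12 and 0.08. CCND3, in the highest group, deviated by 0.03 beside the 0.46 of that group. BCL2L1, in the group below it, deviated by 0.05 beside 0.17.

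**Figure D3:**
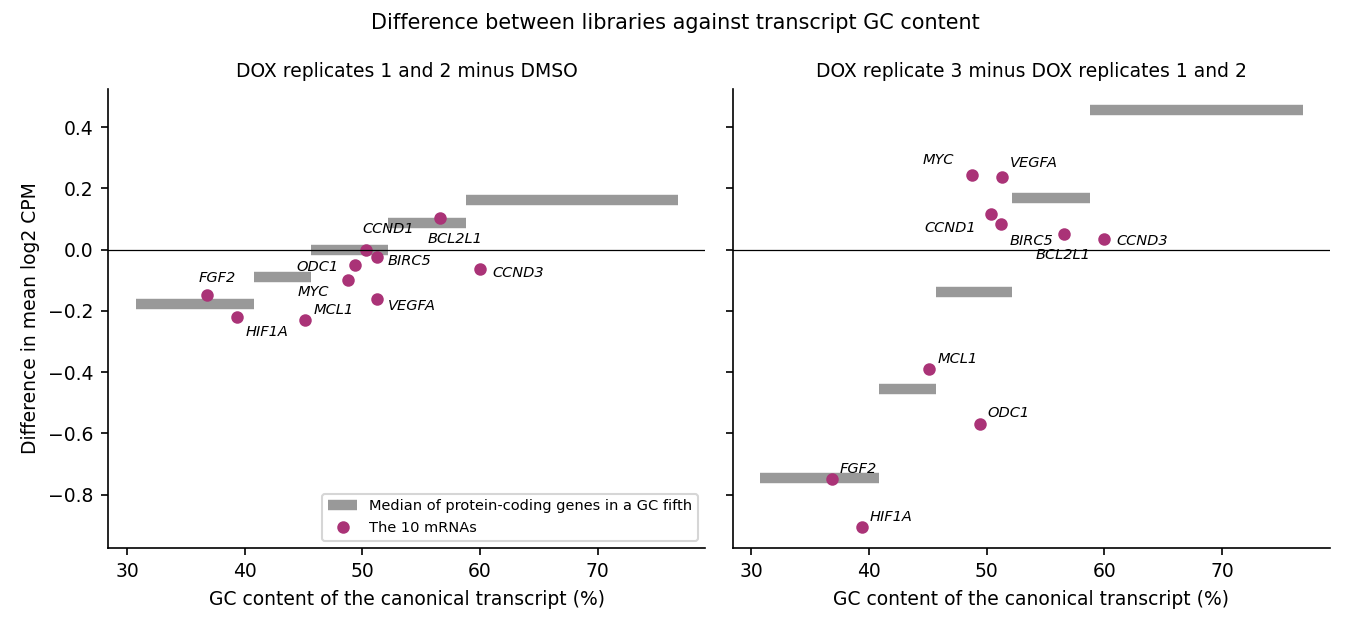
Difference in mean log2 CPM between libraries against the GC content of the canonical transcript, for DOX replicates 1 and 2 minus DMSO (left) and DOX replicate 3 minus DOX replicates 1 and 2 (right). Grey bars are medians of protein-coding genes in 5 equal groups by GC, which climb from -0.18 to 0.16 on the left and from -0.75 to 0.46 on the right. Purple points are the 10 mRNAs, with HIF1A and FGF2 at the low-GC end of both panels. The lowest value of the 10 on the left is that of MCL1, at -0.23.

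A fit with an offset for GC content, chosen after the gradient was seen, was run on the 20396 genes with a canonical transcript. It removes any difference that moves with GC, and the source of the gradient was not tested. HIF1A then had a log2 fold change of -0.14 (SE 0.074), FGF2 0.08 (SE 0.069) and MCL1 -0.20 (SE 0.083). CCND3, whose transcript is the richest in GC of the 10, moved from -0.05 to -0.31 (SE 0.10), with an adjusted p of 0.301 in edgeR's quasi-likelihood test. BCL2L1 turned to -0.05 (SE 0.072). With this offset too, 0 genes were called, with 7.32% lower and 8.85% higher at an unadjusted p under 0.05, among them MCL1 and CCND3 of the 10, both lower. EIF4EBP1 stayed higher at 0.41 (SE 0.14).

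The tool mattered as well. limma voom with sample quality weights gave DOX replicates 1, 2 and 3 weights of 0.700, 4.48 and 0.0770, so replicate 2 carried most of the weight in DOX. This method called 3554 genes lower (17.3%) and 3407 higher (16.6%), among them 5 of the 10, all lower. These were MCL1 (log2 fold change -0.35), HIF1A (-0.28), FGF2 (-0.26), VEGFA (-0.24) and MYC (-0.24). MYC and VEGFA had their lowest DOX value in replicate 2, and without it edgeR gave log2 fold changes of 0.087 and -0.017. With the GC offset added, the same method called none of the 10 and 0 genes in all. The lowest adjusted p among the 10 was then 0.192, for CCND3. None of the 10 was called by DESeq2's Wald test, which called 2 genes lower (0.00973%) and 1 higher (0.00487%), by edgeR with ERCC totals, which called 196 higher (0.954%), or by edgeR with the GC offset and without DOX replicate 3, which called 404 lower (1.99%) and 405 higher (1.99%).

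Per kilobase of canonical transcript, the mRNAs spanned from ODC1, at 144 ± 8.30 CPM per kb (SD, n = 3, DMSO) and above 98.2% of protein-coding genes, to FGF2, at 2.94 ± 0.108 and above 29.7%. BIRC5 (73.5 ± 0.509) and MCL1 (66.9 ± 5.65) came next and overlapped in DMSO but not in DOX. MYC (35.9 ± 4.10), HIF1A (35.8 ± 2.34) and VEGFA (33.4 ± 3.32) did not differ beyond their spread. CCND3 (16.3 ± 0.409) followed, then CCND1 (10.4 ± 0.307) and BCL2L1 (9.53 ± 0.140), which were separate in DMSO and overlapped in DOX.

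The 5′UTRs of the group were long rather than rich in GC. Their median length was 313 bases, beside 146 over 14205 protein-coding genes, and 8 of the 10 were longer than that median, the exceptions being MCL1 (80 bases) and BIRC5 (64 bases). Their median GC content of 66.8% was close to the 67.1% of all genes, with FGF2 (82.3%) and CCND3 (80.5%) at the top and BCL2L1 (56.2%) and VEGFA (56.9%) at the bottom. Predicted folding of the first 100 bases was below the median energy of all genes (-37.4 kcal/mol) for 7 of the 10, most of all for CCND3 (-53.2) and FGF2 (-48.5). An ATG upstream of the start codon was present in ODC1 (1) and BCL2L1 (3), and in 42.5% of all genes. These are descriptions of canonical GENCODE transcripts, not of the transcripts used in these cells. Each 5′UTR was taken to end at the annotated coding start. For VEGFA and MYC that start gives proteins of 395 and 454 residues, and a 5′UTR reaching to a later start was not examined.

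**Figure D4:**
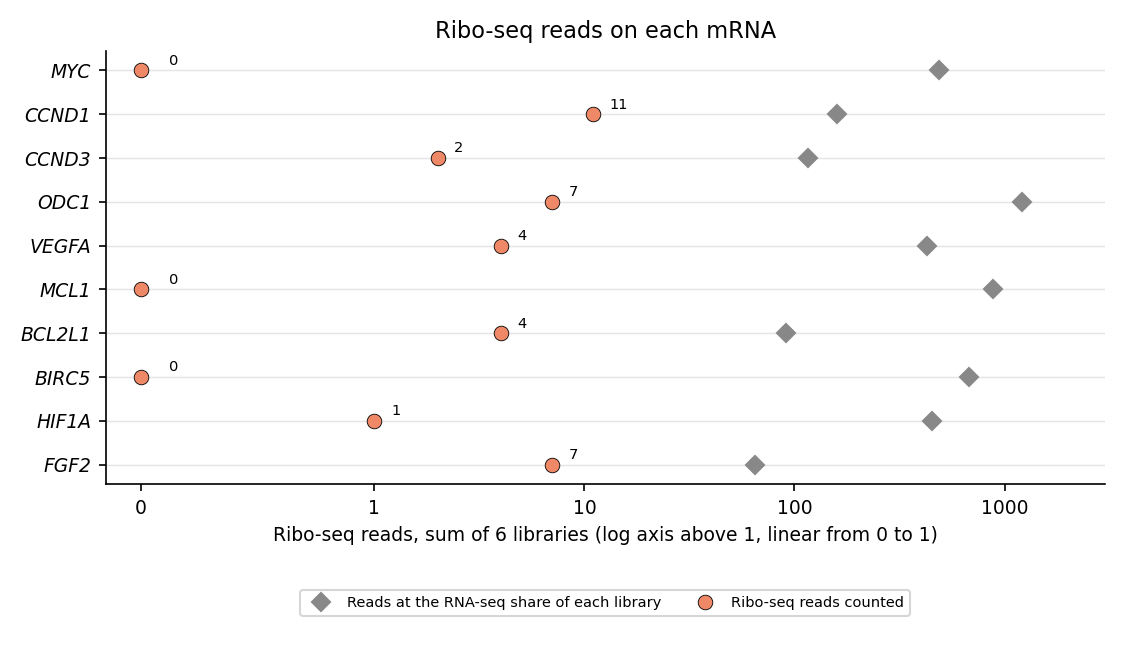
Ribo-seq reads on each of the 10 mRNAs, summed over 6 libraries (orange circles, with their number), and the reads that the RNA-seq share of each mRNA would give at the same depth (grey diamonds), on an axis that is logarithmic above 1. The counted reads run from 0 for MYC, MCL1 and BIRC5 to 11 for CCND1, and every grey diamond lies to the right of 60.

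Ribo-seq held almost no reads on the 10 mRNAs. Together they had 36 of 3638279 Ribo-seq reads on genes, against 347889 RNA-seq reads. At their RNA-seq share of each library they would have had 4556, or 399 once the 20 genes with most Ribo-seq reads, which took 86.1% to 94.3% of each library, are set aside. Per library the counts were 0, 2 and 11 in DMSO and 15, 3 and 5 in DOX. As a share of reads on genes this was 4.59 ± 5.70 CPM in DMSO and 13.1 ± 6.42 CPM in DOX (SD, n = 3), and the groups overlapped. The largest share, 16.98 CPM in DOX replicate 1, had an exact 95% binomial interval of 9.50 to 28.0 CPM, and the 0 of DMSO replicate 1 one of 0 to 17.6 CPM, which cover counting error only.

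The read floor, here 3 reads in a library, was 14.3, 4.18 and 2.99 CPM in DMSO replicates 1, 2 and 3 and 3.40, 5.71 and 10.0 CPM in DOX replicates 1, 2 and 3. MYC, MCL1 and BIRC5 had no Ribo-seq read in any library. The same floor of 3 reads over the 6 libraries together is 0.825 CPM, which is not an upper limit of their share. CCND1 had 7 reads in DMSO replicate 3 and 1, 2 and 1 in the DOX libraries, 11 in all. FGF2 had 7 reads, all in DOX replicate 1. These 2 were the only values above 3 reads for any of the 10 in any library, each in a single library.

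ODC1 had 7 reads (0, 1 and 2 in DMSO, 3, 0 and 1 in DOX), although its mRNA had 93390 RNA-seq reads. VEGFA and BCL2L1 had 4 each, CCND3 2 and HIF1A 1. The counts did not follow RNA-seq abundance: MCL1 and BIRC5, with 66474 and 51883 RNA-seq reads, had none, while FGF2 with 4949 had 7. No fold change between DOX and DMSO is given for the 9 mRNAs other than CCND1, since both groups were at or under the floor or the reads came from 1 library.

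Only CCND1 had the 10 reads that the tests of Ribo-seq and of translational efficiency (TE, Ribo-seq level over RNA-seq level) required. Its log2 fold change in TE was -0.41 with an SE of 1.37 (adjusted p = 0.926, edgeR's quasi-likelihood test of the interaction over 12 libraries), and that in Ribo-seq level -0.26 with an SE of 1.71 (adjusted p = 0.985). Of its 11 Ribo-seq reads 7 were in DMSO replicate 3, and without that library or DOX replicate 2 it fell out of the test. Without DMSO replicate 1 or 2 the TE value was -1.002 or -1.03. Errors of this size do not allow a direction to be read. The Ribo-seq test called 0 of 1607 genes, with 5.48% lower and 3.67% higher at an unadjusted p under 0.05, and DESeq2's Wald test 4 lower and 2 higher. Over all 1334 genes in the TE test, 2 were called lower (0.150%) and 0 higher (0.0%), with 13.3% lower and 7.5% higher at an unadjusted p under 0.05, and DESeq2's Wald test called 39 lower and 30 higher. A change in translation of the other 9 was not detectable at this depth.

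The sparse Ribo-seq coverage was general. Of the 20552 genes in the RNA-seq test, 57.3% had no Ribo-seq read and 5.74% had at least 10. Among the 8503 protein-coding genes with RNA-seq reads between those of FGF2 and ODC1, the median was 1 Ribo-seq read, 43.4% had none and 7.99% had at least 10, and the median of the 10 mRNAs was 3. Among housekeeping mRNAs, ACTB had 36 Ribo-seq reads, GAPDH 5, HPRT1 5, TUBB 1, and PPIA, B2M and TBP none. Their RNA-seq reads ran from 8437 for TBP to 424204 for GAPDH. KRT5 and KRT1, keratins of skin, had 29 and 14 Ribo-seq reads but 0 and 2 RNA-seq reads.

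The partners of the 10 mRNAs were taken from 6 lists, none of whose members were called in the RNA-seq test from all libraries. Their counts stand beside the shares over all genes: 20.8% had DOX values wholly below DMSO and 17.7% wholly above, and without DOX replicate 3 4.03% were called lower and 3.40% higher. A log2 fold change below 0 was seen in 11035 of all 20552 genes tested. Of the genes named from these lists, 8 were called without DOX replicate 3 (RRM2, CDK6, SRM, AMD1, BAX, BIRC2, PMAIP1 and FLT4), and none of these was called once the GC offset was added to that fit, with adjusted p-values in edgeR's quasi-likelihood test of 0.113 (RRM2) to 0.581 (AMD1). Among 11 tested of 13 other mRNAs known for eIF4E-dependent translation or export, 8 had a log2 fold change below 0, with a median of -0.20 (-0.12 with the GC offset), and the DOX values of 6 lay wholly below DMSO and of none wholly above. Without DOX replicate 3, 4 of the 11 were called lower, RRM2 among them, and none higher. For the other calls of this list, the result of that fit with the GC offset is not given here. With the GC offset over all 6 libraries, none of the 11 was called, nor any gene at all. RRM2, the small subunit of ribonucleotide reductase, was at 109 ± 6.84 CPM in DMSO and 77.6 ± 23.4 in DOX (SD, n = 3; log2 fold change -0.49), and NBN, a subunit of the MRN complex of DNA repair, at 148 ± 7.82 and 108 ± 35.9 CPM (-0.46). These were -0.275 and -0.22 without DOX replicate 3, and -0.26 and -0.04 with the GC offset.

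Around MYC and the cyclins, the median of 16 genes was 0.03, and 6 lay wholly below DMSO and 3 wholly above, the latter near the 17.7% of all genes. CDK6, the kinase partner of the D cyclins, had -0.49 and RB1, their substrate, -0.43, while MNT and MXD3, which compete with MYC for MAX, had 0.54 and 0.28. These were -0.24, -0.15, 0.25 and 0.10 without DOX replicate 3, and with the GC offset -0.18, -0.02, 0.20 and -0.15. CDK6 was called lower without DOX replicate 3 (adjusted p = 0.0355, edgeR's quasi-likelihood test), the single call of this list in that fit.

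Of the 13 genes of polyamine synthesis and its control, 3 lay wholly below, near the 20.8% of all genes, and 1 wholly above. SRM, spermidine synthase, was at 126 ± 13.5 CPM in DMSO and 190 ± 61.5 in DOX (0.60), and AMD1, which makes the decarboxylated S-adenosylmethionine that SRM uses, had -0.45. The antizyme inhibitor AZIN1, which protects ODC1 from degradation, had -0.42. Without DOX replicate 3, SRM (0.30) was called higher and AMD1 (-0.23) lower, with AZIN1 at -0.20, and with the GC offset the 3 values were 0.19, -0.05 and -0.03.

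Of 19 tested genes of the BCL2 and IAP families and survivin's partners, 5 lay wholly below and 3 wholly above, near the shares of all genes, with a median of 0.10 that turned to -0.09 with the GC offset. BAX and BBC3, which promote apoptosis, had 0.44 and 0.44, PMAIP1, which encodes the MCL1 antagonist NOXA, had -0.47, and BIRC2, which encodes the ubiquitin ligase cIAP1, -0.53. With the GC offset these were 0.13, -0.13, 0.01 and -0.13. Without DOX replicate 3, BAX (0.26) was called higher and PMAIP1 (-0.31) and BIRC2 (-0.27) lower, and BBC3 was at 0.12.

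Hypoxia response genes had a median of -0.0016 over 15 tested, and none was called without DOX replicate 3. EGLN2, an oxygen-sensing prolyl hydroxylase, was the 1 whose groups did not overlap, at 9.67 ± 0.417 CPM in DMSO and 12.5 ± 1.46 in DOX (0.37, and -0.0022 with the GC offset). Among 16 tested genes of the VEGF and FGF families and their receptors, 3 lay wholly below and 4 wholly above, near the shares of all genes. The VEGF receptor FLT4 had 0.49 and the ligand PGF 0.43, while FGF9 had -0.47 and FGF13 -0.29. With the GC offset these were 0.15, 0.06, -0.16 and 0.11, and without DOX replicate 3 they were 0.30, 0.27, -0.30 and -0.26, FLT4 being the single call of the list, higher.

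**Figure D5:**
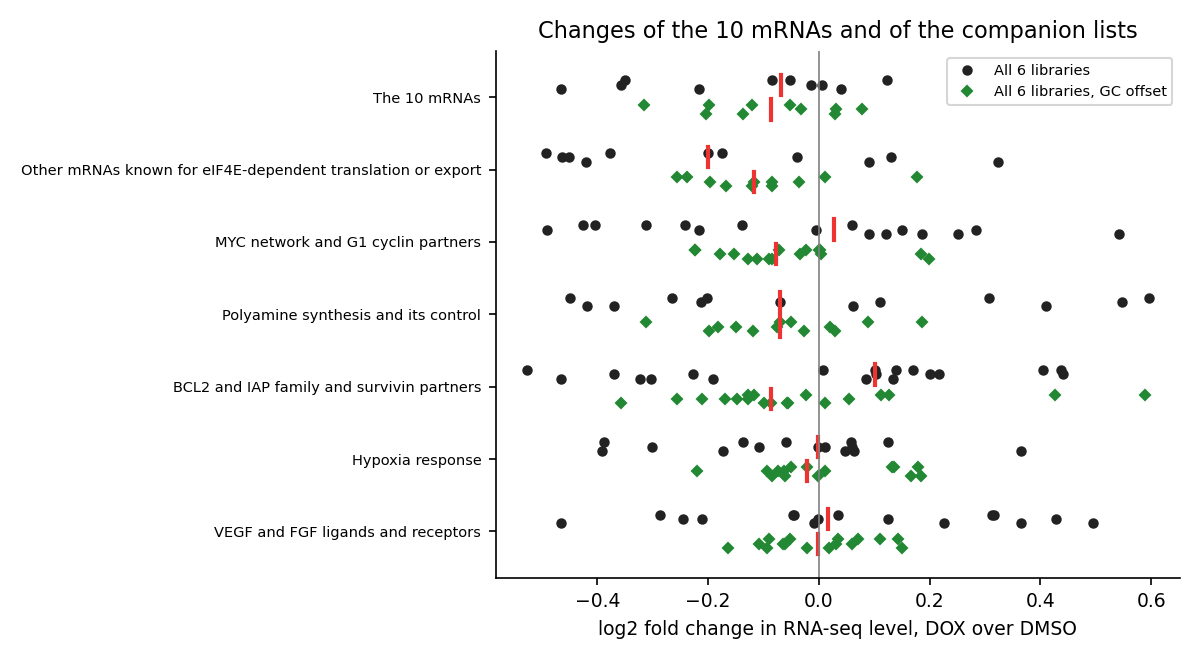
Log2 fold change in RNA-seq level, DOX over DMSO, of the 10 mRNAs and of the tested genes of 6 companion lists, from all 6 libraries (black circles) and with the GC offset (green diamonds), with list medians in red. Most points lie nearer to 0 with the offset, and the median of the other eIF4E-dependent mRNAs is the lowest in both fits, at -0.20 and -0.12.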

How the data were processed

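The authors removed linker and ribosomal RNA sequences from the Ribo-seq reads, aligned all reads with STAR and counted those with 1 alignment per gene; the deposited counts are raw and whole. The submitters' notes name GRCh37 and Ensembl 75, and the study's methods GRCh37 for the annotation and GRCh38 for the alignment. The deposited TE table holds the authors' own fold, p-values and dispersions and was used only for gene symbols. All 12 count columns were used. Rows for 92 ERCC spike-ins, 89 viral or unnamed rows and the read counters were left out of library sizes and tests. Coordinates, UTRs and GC content came from canonical transcripts of GENCODE 44 (GRCh38; 99.1% of genes matched), folding from ViennaRNA 2.7.2.

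Counts were scaled by TMM and tested with edgeR 4.0.16 (quasi-likelihood test, Benjamini-Hochberg adjustment at 0.05; limma 3.58.1, DESeq2 1.42.0, R 4.3.3). Genes needed 10 reads in 3 libraries for RNA-seq, and 10 reads over the 6 libraries of each assay for Ribo-seq and TE. The change in TE was tested as an assay-by-treatment interaction over 12 libraries, since RiboDiff was not at hand. Scripts were tested on simulated counts. The GC offset, chosen after seeing the data, is a lowess curve per library. Besides the 10 mRNAs and EIF4EBP1, up to 2 genes per list and direction were named, those with the largest RNA-seq changes whose groups did not overlap. Members and lists were chosen with earlier results of these data known. Figures were drawn with matplotlib 3.10.9.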

Additional observations from a re-analysis of the deposited data

Results flagged for a closer look

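The share of RNA-seq reads with more than 1 alignment, a counter outside the gene comparisons, was above the DMSO range of 54.9% to 62.3% in all 3 DOX libraries, at 65.4% in DOX replicate 1, 69.9% in replicate 2 and 88.4% in replicate 3. These reads are in no gene count. Their part in the lower values of HIF1A, FGF2, ODC1 and MCL1 in DOX replicate 3 was not tested.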

How the results depend on the processing

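In the RNA-seq test, 0 genes were called with DESeq2 size factors, library totals, no filter, a filter of 60 reads in 3 libraries, robust fitting, the replicate block, the GC offset and voom weights with that offset. Calls appeared with ERCC totals (196), DESeq2's Wald test (3), the likelihood ratio test (12), voom weights (6961, 5 of them among the 10 mRNAs, the 1 setting that called any) and the GC offset without DOX replicate 3 (809). Leaving out 1 replicate gave 0 to 1521 calls, the latter without DOX replicate 3 and 0 without any other, and 0 of the 10 each time. TE calls numbered 1 with library totals, 10 without a filter, 69 with DESeq2's Wald test, 200 with the likelihood ratio test, 0 with the replicate block and 0 to 1 without 1 replicate. Ribo-seq calls were 0 except 6 with DESeq2's Wald test. Deviations of same-numbered DMSO and DOX libraries from their group means had RNA-seq correlations of 0.457, -0.444 and 0.0272. With 3 libraries per group these values depend on each other, so they cannot show whether the numbers pair samples. Log2 fold changes of these mRNAs changed sign while uncalled: with library totals MYC 0.14, CCND3 0.095 and VEGFA 0.069; with ERCC totals MYC 0.39, CCND3 0.36, ODC1 0.13, VEGFA 0.33 and FGF13 0.097; with DESeq2 size factors MYC 0.0081 and its Wald test 0.032; with the GC offset MYC 0.031, BCL2L1 -0.053, BIRC5 -0.032, FGF2 0.078, MXD3 -0.15, BBC3 -0.13, PMAIP1 0.011, EGLN2 -0.0022 and FGF13 0.11; with voom weights and the offset CCND1 -0.0050, BCL2L1 -0.0061, BIRC5 -0.044, FGF2 0.044, MXD3 -0.12, RB1 0.047 and BBC3 -0.13; and with the offset without DOX replicate 3 CCND1 -0.028, BIRC5 -0.063, FGF2 0.055, MXD3 -0.12, RB1 0.053 and BBC3 -0.14. Without 1 replicate MYC ran from -0.10 to 0.087, CCND1 from -0.0018 to 0.11 and BIRC5 from -0.025 to 0.056. MCL1 and HIF1A kept their direction under every setting run, at -0.48 to -0.012 and -0.65 to -0.068. CCND1 in Ribo-seq alone was 0.84 with the replicate block. Without the 20 genes with most Ribo-seq reads, the 10 mRNAs had a share of 60.1 CPM in DMSO and 165 CPM in DOX. Which causes lie behind these differences was not tested. Depth limits Ribo-seq: 36 reads on 10 mRNAs cannot carry a comparison of TE. In RNA-seq, DOX replicate 3 was the lowest library for ODC1, MCL1, HIF1A and FGF2, but not for the others of the 10.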
